A study of Rattus norvegicus with 30 samples.

Results

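Collagens are the fibre and sheet proteins of the extracellular matrix, and the rows of the gene count table whose symbol names a collagen chain (Col, a type number, the letter a and a chain number) were followed here: 44 of 30562 rows. Of these, 8 encode basement membrane collagens (all Col4 chains, Col15a1 and Col18a1) and 6 encode fibrillar collagens of types I, III and V. A collagen molecule is a triple helix of 3 chains, which may come from 1 gene or from different genes. Type IV collagen forms the sheet network of the basement membrane on which endothelial cells sit, types XV and XVIII carry sugar chains and lie at the border of that membrane, and types I, III and V form the cross-banded fibrils of the tissue around vessels and airways. In the lung, fibroblasts and mural cells are well known makers of the fibrillar types, whereas endothelial, epithelial and mural cells all make type IV.

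The libraries came from wild-type rat lung cells enriched for CD31 (Pecam1, an endothelial surface protein) on microbeads 3 weeks after surgery. A Glenn operation joins the superior vena cava to a pulmonary artery, so that the connected lung no longer receives blood coming from the liver, and sham-operated rats were the controls. After surgery each group was kept on a control diet, a vitamin A-deficient diet or a vitamin A-excess diet, which gave 6 groups of 5 libraries: sham control, Glenn control, sham deficient, Glenn deficient, sham excess and Glenn excess. The labels do not say how many animals a library holds or which lung was taken, so the p-values measure the spread between libraries.

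Library totals ran from 22.0 to 77.6 M estimated counts (median 40.0 M; M is 1e6). Levels below are counts per M of the scaled total (CPM), and a gene was called changed at an adjusted p under 0.05 in edgeR's quasi-likelihood test over the 16171 genes that passed the filter on low counts. Pecam1 and Cdh5, which serve as endothelial markers here, lay at 863 to 1731 CPM and 1557 to 2926 CPM in the 30 libraries. Transcripts of the labelled cells were thus present. Other cells were present too: transcripts of type 2 alveolar cells summed to 24750 to 59903 CPM. Collagen transcripts made up 0.408 to 0.622% of the scaled total in the 15 sham libraries (median 0.546%). In the 15 Glenn libraries they made up 0.634 to 1.04% of it (median 0.814%), with no overlap. Of the 44 collagen genes, 40 passed the filter. Col2a1, Col10a1, Col25a1 and Col26a1, which did not, stayed under 1 CPM in every library.

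Some chains of 1 molecule are encoded head to head, and for these pairs the stretch between the starts lies upstream of both genes. The 76 bases between Col4a2, which runs on the minus strand, and Col4a1, which runs on the plus strand, are shown because both genes rose after Glenn surgery. The bases between Col4a4 (minus strand) and Col4a3 (plus strand) are shown because these chains moved in opposite directions; their starts lie 412 bases apart, and the 250 bases just before Col4a3 are printed. Both are plus-strand reference sequences of the GRCr8 assembly from RefSeq, at chr16:84885521-84885596 and chr9:91323740-91323989, and capitals mark a GC box (GGGCGG, read on either strand).
Col4a1/Col4a2: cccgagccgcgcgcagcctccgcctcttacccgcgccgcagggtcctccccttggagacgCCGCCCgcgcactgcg
Col4a3/Col4a4: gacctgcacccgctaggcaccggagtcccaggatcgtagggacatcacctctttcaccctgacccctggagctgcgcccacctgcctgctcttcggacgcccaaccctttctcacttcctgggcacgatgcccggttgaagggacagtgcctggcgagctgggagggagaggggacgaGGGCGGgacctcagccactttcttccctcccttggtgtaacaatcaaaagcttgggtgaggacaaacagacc
The first stretch was 78.9% G and C and the second 62.0%. Each held 1 GC box, and none of the other motifs searched (the CCAAT box, the TATA box TATAAA, and a GC-rich SMAD element) had a match within the bases printed. RefSeq gave 38 windows for 35 collagen genes, from 250 bases before to 50 bases after a start, searched on both strands. GGGCGG occurred in 20 of these 38 windows (19 genes) and in 33.1% of all 33469 windows. The CCAAT box occurred in 12 of the 38 windows (11 genes) and in 37.5% of all windows. Col4a1 and Col4a2 were both among these genes, with matches not contained in the 76 bases shown. The TATA box occurred in 4 of the 38 windows (4 genes) and in 14.2% of all windows. The SMAD element was searched as GGCGCC, which can overlap a GC box by a few bases. It occurred in 4 of the 38 windows (4 genes) and in 11% of all windows. Col4a1 was among these genes, again with no match contained in the 76 bases. These are matches of letters only.

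Most collagen genes that passed the test were higher after Glenn surgery, with a larger median change among basement membrane than among fibrillar collagens. Averaged over the 3 diets, 30 of the 40 tested collagen genes were called, 24 higher and 6 lower; of all genes tested 48.2% were called, 23.4% higher and 24.7% lower. The median log2 change was 0.45 over the collagen genes and -0.01 over all genes. At least 2-fold higher and called were 11 collagen genes, against 6.04% of all genes, and 2 were at least 2-fold lower, against 2.72%. The genes counted as higher include Col19a1 and Col28a1, which had too few sham counts for a measured fold. For 9 of the 40 all 15 Glenn libraries lay above all 15 sham libraries, which was so for 3.1% of all genes, and for none did all lie below (2.73% of all genes; 5.83% in either direction). These 9 were Col18a1, Col4a1, Col4a2, Col15a1, Col5a1, Col12a1, Col8a1, Col27a1 and Col19a1.

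**Figure D1:**
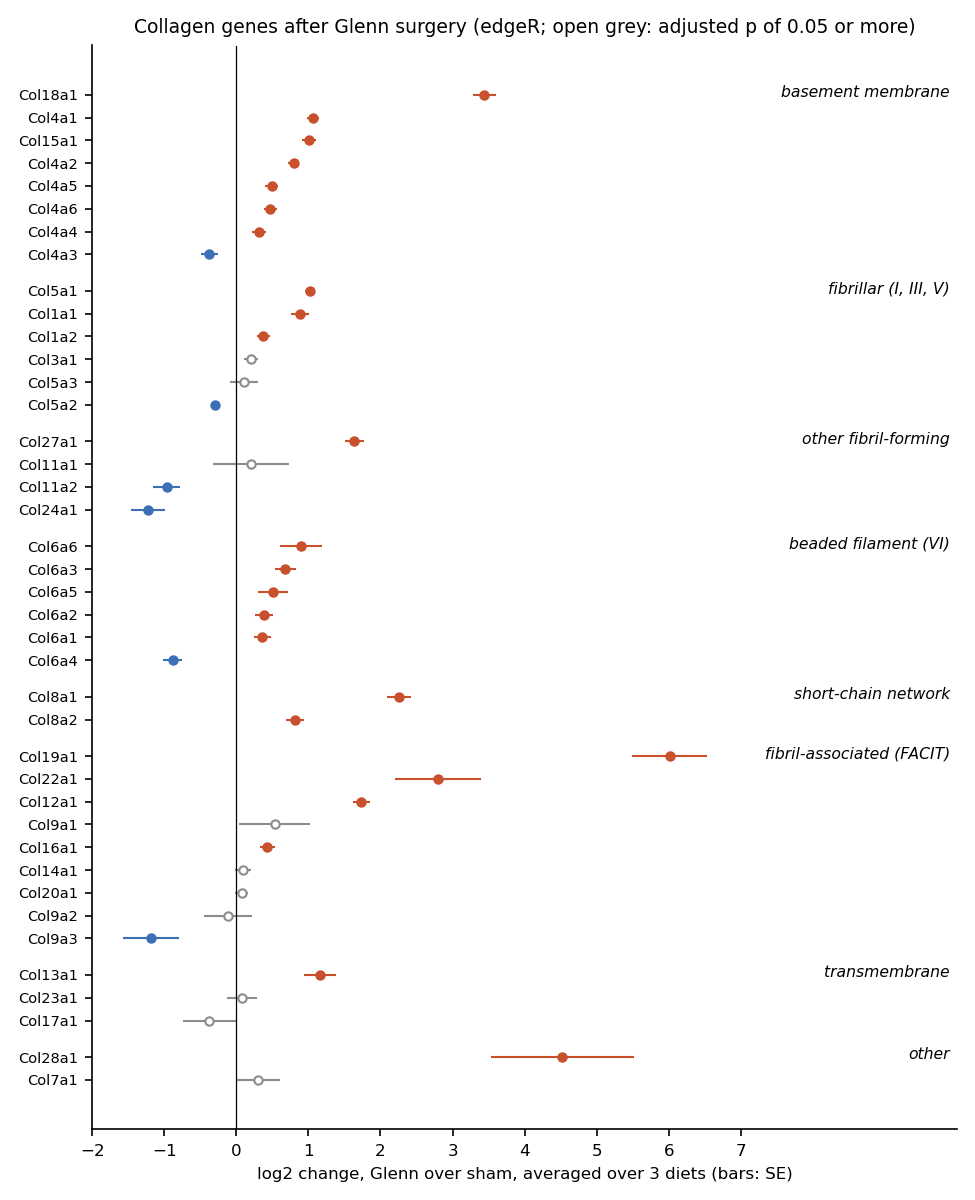
Each row is a tested collagen gene and the horizontal axis gives the log2 change of Glenn over sham averaged over 3 diets, with bars of 1 standard error; filled points passed an adjusted p of 0.05 and open grey points did not. Of 40 genes, 24 lie to the right and 6 to the left as filled points; the value of Col28a1 comes from a sham group mostly at 0 and is not a measured fold.

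Among the 8 basement membrane collagens 7 rose and 1 fell, with a median log2 change of 0.64. Among the 6 fibrillar collagens 3 rose, 1 fell and 2 did not pass the test, with a median of 0.29, which is 0.35 lower. This difference between the classes was given no test. The background for the counts of both classes was 48.2% of all genes called, 23.4% higher and 24.7% lower. The summed basement membrane level was 1707 to 2569 CPM in sham libraries (median 2260) and 3176 to 5976 CPM in Glenn libraries (median 4237), with no overlap. The summed fibrillar level was 1612 to 3576 CPM (median 2570) and 2159 to 5001 CPM (median 3218), and here the groups overlapped. Divided within each library, basement membrane over fibrillar was 0.506 to 1.30 after sham (median 0.870) and 0.894 to 2.10 after Glenn (median 1.37), again with overlap. CPM is not divided by transcript length, so such sums and ratios are read only between groups and not as amounts of protein.

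Col18a1, whose protein carries the endostatin fragment at its end, had the largest change of the basement membrane genes. Its levels were 42.8, 39.3, 20.6, 26.1 and 24.7 CPM in sham control and 464, 233, 275, 231 and 281 CPM in Glenn control libraries. On the deficient diet they were 45.0, 44.7, 26.2, 40.6 and 41.4 CPM in the sham libraries and 394, 310, 558, 402 and 422 CPM in the Glenn libraries, and on the excess diet 18.3, 37.5, 30.7, 29.0 and 26.3 CPM in the sham libraries and 232, 372, 277, 310 and 595 CPM in the Glenn libraries. The lowest Glenn library (231 CPM) thus stood far above the highest sham library (45.0 CPM). The log2 change averaged over diets was 3.44 (SE 0.16, adjusted p 1.53e-15 by edgeR), and it was 3.27, 3.40 and 3.65 on the control, deficient and excess diets.

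Col4a1 and Col4a2, the chains of the common type IV network, rose together but not equally. Col4a1 was at 782 to 1317 CPM after sham (median 1098) and 1638 to 3219 CPM after Glenn (median 2133), a log2 change of 1.06 (SE 0.08, adjusted p 8.94e-12 by edgeR). Col4a2 was at 454 to 718 CPM (median 625) and 788 to 1489 CPM (median 974), a log2 change of 0.80 (SE 0.08, adjusted p 6.86e-10 by edgeR). Neither gene had a Glenn library within the sham range. The ratio of Col4a1 to Col4a2 within a library was 1.69 to 1.90 after sham (median 1.79) and 2.01 to 2.26 after Glenn (median 2.16) and did not overlap either; the starts of both genes flank the 76 bases shown above. Col15a1, the relative of Col18a1, rose from 164 to 319 CPM (median 220) to 323 to 626 CPM (median 438), with a log2 change of 1.01 (SE 0.10, adjusted p 7.97e-10 by edgeR).

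**Figure D2:**
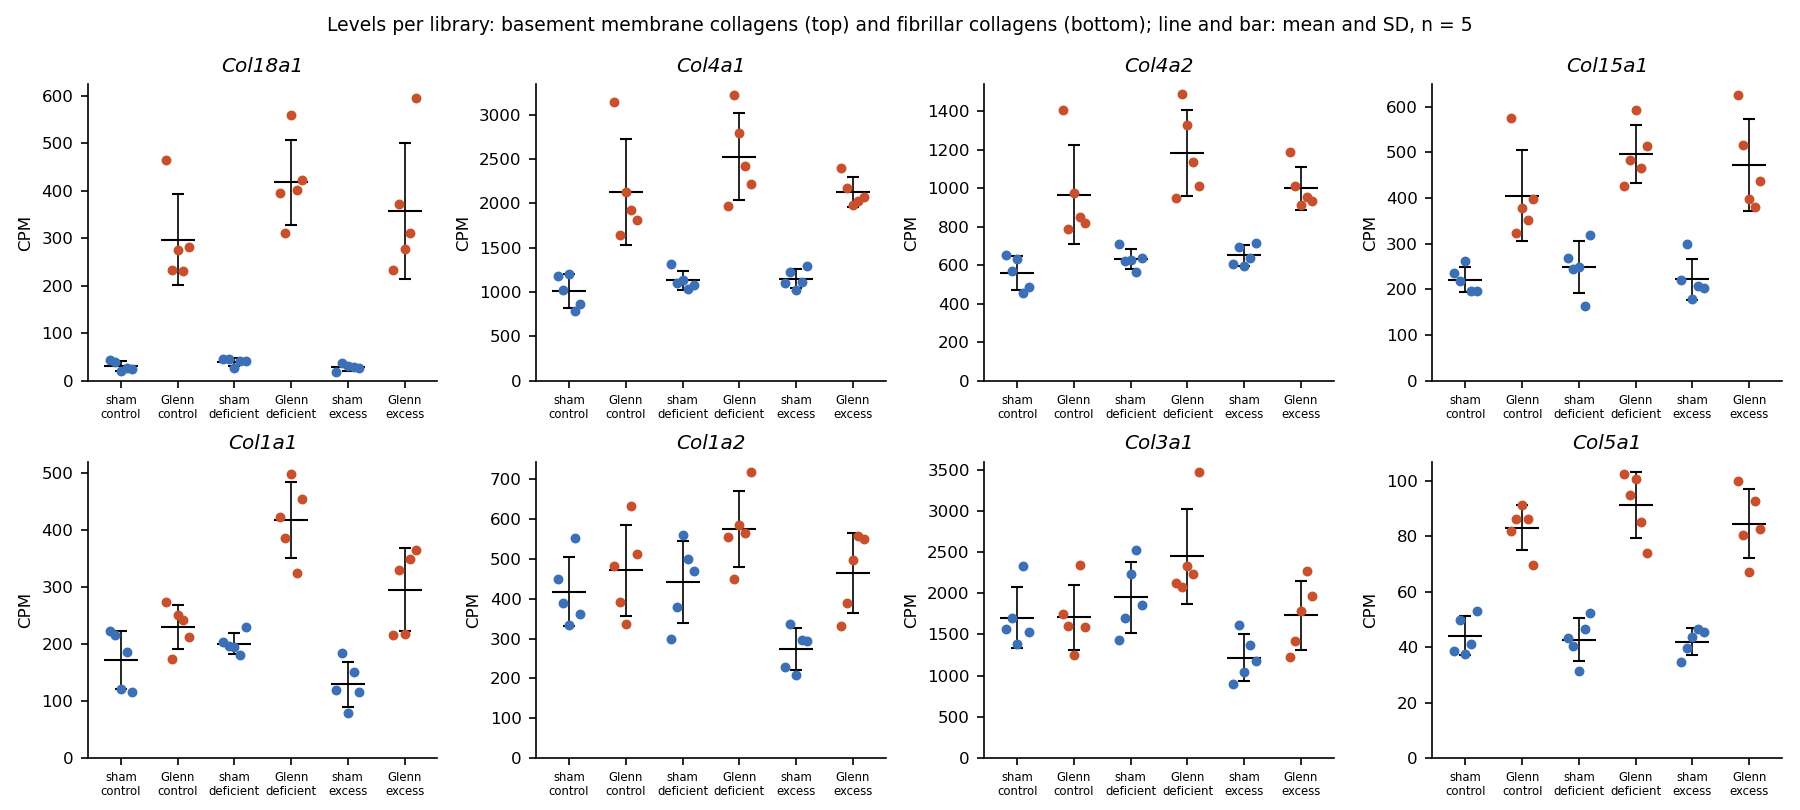
Each point is a library, the vertical axis is CPM from 0, and the line and bar are the mean and SD of 5 libraries in each of the 6 groups. In the upper row (Col18a1, Col4a1, Col4a2, Col15a1) all Glenn libraries lie above all sham libraries, and in the lower row this is so for Col5a1 and not for Col1a1, Col1a2 or Col3a1.

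The other type IV chains changed less. Col4a5 and Col4a6, which are neighbours on the X chromosome in mammals, rose by log2 0.49 (SE 0.09, adjusted p 7.04e-05 by edgeR) and 0.47 (SE 0.09, adjusted p 9.36e-05 by edgeR). Col4a3 and Col4a4, chains of the specialised membrane shared by alveolar epithelium and capillaries, moved apart: Col4a4 rose by 0.31 (SE 0.10, adjusted p 0.0102 by edgeR) and Col4a3 fell by 0.38 (SE 0.12, adjusted p 0.00937 by edgeR). Col4a3 lay at 30.8 to 75.3 CPM after sham (median 51.7) and 29.8 to 60.8 CPM after Glenn (median 41.2), and Col4a4 at 77.8 to 124 CPM (median 106) and 89.4 to 205 CPM (median 127), so each gene overlapped between the groups. Their ratio within a library did not: Col4a3 over Col4a4 was 0.389 to 0.665 after sham (median 0.532) and 0.263 to 0.371 after Glenn (median 0.323). Within the libraries numbered 355 to 387 Col4a4 did not pass the test (0.30, adjusted p 0.0796), and among the 17 libraries with low RT1-CE16, explained further on, Col4a3 (-0.39, adjusted p 0.0994) and Col4a5 (0.40, adjusted p 0.0559) did not.

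**Figure D3:**
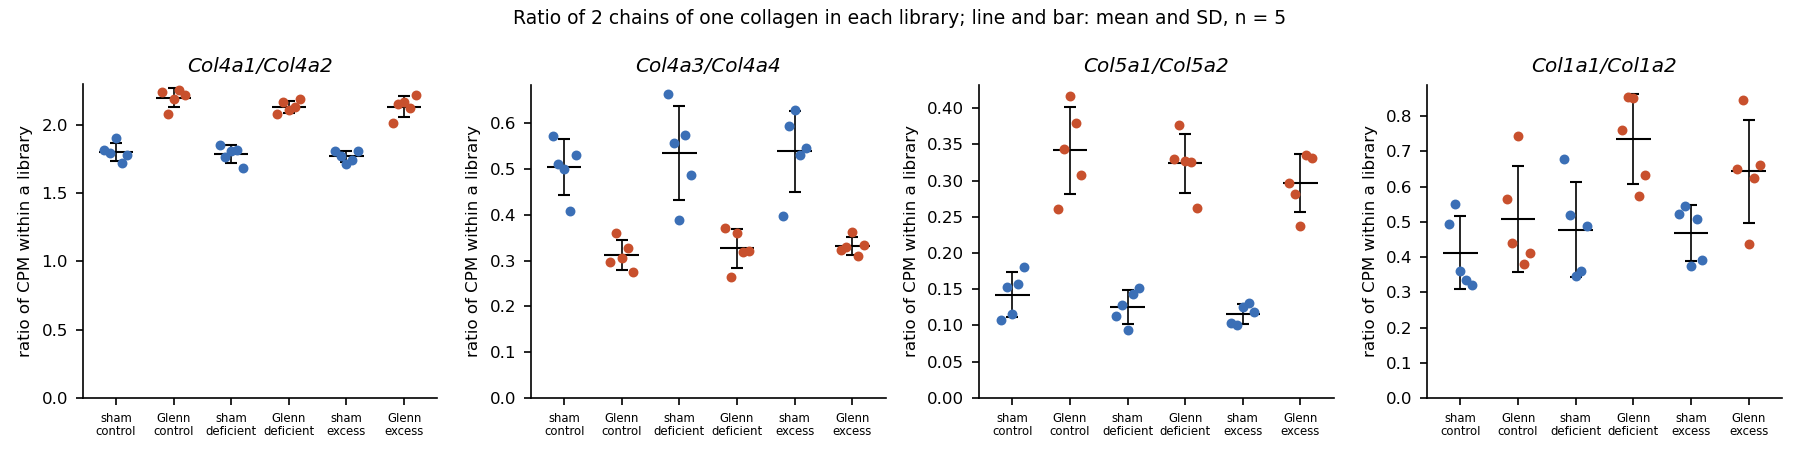
Each point is the ratio of CPM of 2 chains of a collagen within a library, and the line and bar are the mean and SD of 5 libraries. The Col4a1/Col4a2 and Col5a1/Col5a2 ratios are higher and the Col4a3/Col4a4 ratio is lower in all 15 Glenn libraries than in any sham library, while Col1a1/Col1a2 overlaps. The other ratios computed, Col4a5/Col4a6, Col6a1/Col6a2, Col8a1/Col8a2 and Col3a1/Col5a2, are not shown and overlap too. No background over other gene pairs was computed.

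Among the fibrillar genes, Col5a1 alone had no overlap between sham and Glenn libraries. Col5a1, a chain of the type V collagen that sits inside type I fibrils and limits their width, was at 31.5 to 53.2 CPM after sham (median 43.3) and 67.2 to 102 CPM after Glenn (median 86.4), a log2 change of 1.02 (SE 0.07, adjusted p 1.01e-12 by edgeR). Its partner chain Col5a2 fell by 0.30 (SE 0.06, adjusted p 3.88e-05 by edgeR), from a median of 338 to 276 CPM with overlapping ranges. The ratio of Col5a1 to Col5a2 was 0.0933 to 0.180 after sham (median 0.126) and 0.237 to 0.416 after Glenn (median 0.327), without overlap. The third type V chain, Col5a3, lay at 2.33 to 6.24 CPM after sham and 2.34 to 10.5 CPM after Glenn and did not pass the test (log2 0.11, SE 0.19, adjusted p 0.68 by edgeR).

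Both type I chains rose, and whether the type III chain passed the test depended on the fit. Col1a1, a chain of type I collagen, was at 78.3 to 229 CPM after sham (median 183) and 173 to 498 CPM after Glenn (median 324), a log2 change of 0.89 (SE 0.12, adjusted p 8.43e-07 by edgeR) with overlap. Col1a2, the other type I chain, rose by 0.38 (SE 0.09, adjusted p 0.000862 by edgeR), and the ratio of Col1a1 to Col1a2 overlapped between sham (median 0.487) and Glenn (median 0.632). Col3a1, the only chain of type III collagen, was at 892 to 2521 CPM (median 1570) and 1220 to 3468 CPM (median 1964) and did not pass the test (log2 0.21, SE 0.09, adjusted p 0.0726 by edgeR). It passed in fits without Glenn control replicate 3 (adjusted p 0.0349), Glenn deficient replicate 4 (0.0413), sham control replicate 4 (0.0211) or sham excess replicate 2 (0.0275), and with DESeq2 (0.0378). With all libraries it also passed without the library-range term (0.0401), with RT1-CE16 in its place (0.0311), with RT1-CE16 and sex (0.0269) and with the replicate block (0.0267), at log2 changes of 0.22 to 0.28 over these fits and DESeq2.

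Collagen classes outside the basement membrane and the main fibrils held other large changes. Col8a1, a chain of the short-chain network collagen found under endothelium and around smooth muscle, rose by log2 2.26 (SE 0.16, adjusted p 9.1e-12 by edgeR), from 8.09 to 18.6 CPM (median 12.1) to 42.4 to 141 CPM (median 50.9) without overlap. Its partner Col8a2 rose by 0.81 (SE 0.13, adjusted p 3.72e-06 by edgeR) with overlap. Col12a1, which binds along the surface of type I fibrils, was at 9.09 to 24.2 CPM after sham (median 18.9) and 42.0 to 80.7 CPM after Glenn (median 57.1), a log2 change of 1.73 (SE 0.12, adjusted p 2.21e-12 by edgeR). Col27a1, a fibril-forming chain known from cartilage, rose by 1.64 (SE 0.13, adjusted p 2.61e-11 by edgeR) at 0.706 to 2.12 CPM (median 1.47) against 2.78 to 6.32 CPM (median 4.81). All 15 Glenn libraries exceeded all sham libraries for Col8a1, Col12a1 and Col27a1.

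Col19a1, a fibril-associated collagen of basement membrane zones, went from near absence to a low level. It had 0 counts in 7 of the 15 sham libraries and 45 counts over all sham libraries, of which 23 came from sham excess replicate 3 and 12 from sham deficient replicate 2. Over the 15 Glenn libraries it had 2238 counts, from 45 to 275 in each library or 1.45 to 6.31 CPM (median 2.93). The fitted log2 change was 6.01 (SE 0.52, adjusted p 1.57e-10 by edgeR), a size that rests on these few sham counts. Its neighbour in the genome, Col9a1, stayed at or below 0.608 CPM and did not pass the test (log2 0.53, SE 0.49, adjusted p 0.395 by edgeR).

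Of the 9 fibril-associated collagens 4 rose (Col12a1, Col16a1, Col19a1 and Col22a1) and 1 fell (Col9a3). Of all genes tested 48.2% were called, 23.4% higher and 24.7% lower, which is the background for the counts in this paragraph. Col22a1 averaged 0.400 CPM over the libraries. Col9a3 had 243 counts over all sham and 111 over all Glenn libraries, and its call was lost when number 1 of each Glenn group was left out together; that of Col16a1 was lost within the libraries numbered 355 to 387. The 4 tested fibril-forming genes outside types I, III and V comprised 1 that rose, Col27a1, and 2 that fell, Col11a2 and Col24a1. Of the 3 tested transmembrane collagens, Col13a1 rose and Col17a1 and Col23a1 did not pass the test. Of the remaining pair, Col7a1 did not pass and Col28a1 was called; Col28a1 had 0 counts in 13 of 15 sham and 4 of 15 Glenn libraries and is given no fold. Its calls rest on counts of at most 35 in a library.

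All 6 type VI chains, which form beaded filaments around cells, were called, 5 higher and 1 lower (background 48.2% of all genes called). The lower one, Col6a4, fell by 0.88 (SE 0.13, adjusted p 3.19e-06 by edgeR), from 35.0 to 105 CPM (median 70.3) to 20.8 to 55.3 CPM (median 32.6). Col6a1, Col6a2, Col6a3, Col6a5 and Col6a6 rose by 0.36 to 0.90 on the log2 scale. Col6a4, Col6a5 and Col6a6 are adjacent and similar genes, so that reads may be split between them and their single values are uncertain. The call of Col6a5 (adjusted p 0.0479) was lost when any of 17 of the 30 libraries was left out. Between libraries of a group, the median SD of log2 levels was 0.277 over the 8 basement membrane genes, 0.311 over 5 fibrillar genes and 0.382 over 5 type VI genes at 10 CPM or more, against 0.152 over the 9626 genes at that level.

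Cell type markers moved with the same contrast, which bears on every collagen change above because fewer cells of a type and less RNA per cell cannot be told apart in bulk RNA. All 11 tested mural markers (pericyte and smooth muscle genes; 12 listed) were higher after Glenn: their sum was 188 to 389 CPM after sham (median 304) and 561 to 1880 CPM after Glenn (median 814), without overlap, Acta2 by log2 2.01 and Pdgfrb by 0.91. Fibroblast markers were higher for 10 of 12 and lower for 0, with sums of 405 to 850 CPM (median 541) and 409 to 1102 CPM (median 841) that overlapped, Pdgfra by 0.83 and Dcn by 0.64. Of 9 endothelial markers 3 were higher and 5 lower, with sums of 8687 to 10827 CPM (median 9719) and 6428 to 9071 CPM (median 8072); Cdh5 fell by 0.25 and Pecam1 did not pass the test (-0.16, adjusted p 0.0692 by edgeR). Type 1 alveolar markers were higher for 4 of 5 and lower for 1, with overlapping sums (medians 792 and 1145 CPM). All 6 type 2 alveolar markers were lower in the average over diets; taking control, deficient and excess diets in turn, 0, 6 and 2 of the 6 were called, and median sums after sham and Glenn were 41221 and 42264 CPM, 42092 and 28108 CPM, and 44345 and 28933 CPM. Of 4 tested leukocyte markers 2 were lower. Sums over the leukocyte list were 13006 to 24453 CPM after sham (median 19603) and 8043 to 18852 CPM after Glenn (median 11854), with overlap. By contrast, 0 of 5 mesothelial, 0 of 1 tested cartilage and 0 of 2 tested Schwann cell markers were called. For the counts averaged over diets the background was 48.2% of all genes called, 23.4% higher and 24.7% lower. It was 24.9%, 27.4% and 21.9% called on the control, deficient and excess diets. The part of these cell types in the collagen results was not tested.

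**Figure D4:**
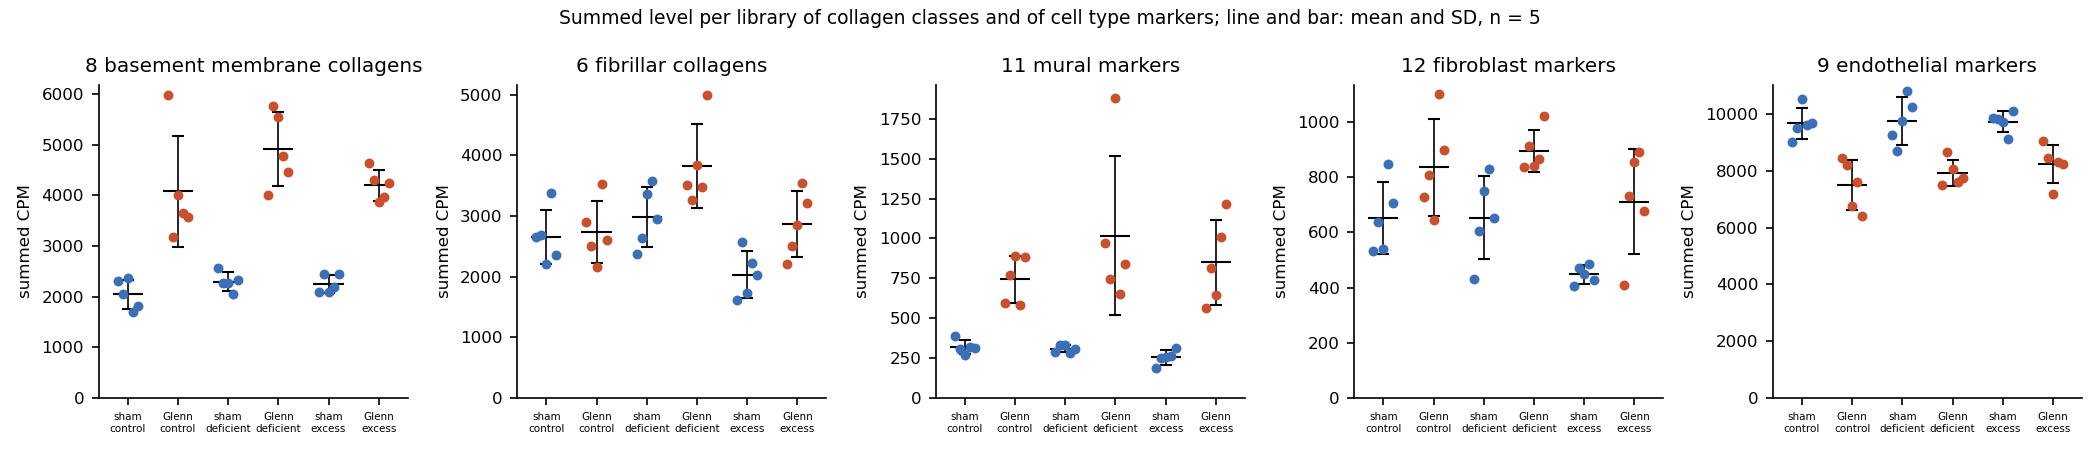
Each point is the summed CPM of a gene list in a library, with the mean and SD of 5 libraries, for the basement membrane and fibrillar collagens and for cell type markers. The basement membrane sums (1707 to 2569 CPM after sham, 3176 to 5976 CPM after Glenn) and the mural marker sums do not overlap between sham and Glenn, and the fibrillar and fibroblast sums do.

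The libraries also differed in ways that the group labels do not describe. Library numbers fell into 2 ranges, 22 libraries from 355 to 387 and 8 from 598 to 606, and the latter were found in the sham deficient, Glenn deficient and Glenn excess groups only. RT1-CE16, a histocompatibility gene, was at most 44.4 CPM in 17 libraries and at least 407 CPM in 13, with 3 high libraries in sham control, sham deficient and Glenn excess, 2 in Glenn control and Glenn deficient, and 0 in sham excess. All 8 libraries numbered 598 to 606 had high RT1-CE16. On the deficient and excess diets all libraries numbered 355 to 387 had low RT1-CE16, so there the 2 differences cannot be told apart. Sex was read from the level of Ddx3y, with male above 10 CPM, which gave 13 male and 17 female libraries. Each group had 2 male and 3 female libraries, except Glenn excess with 3 male and 2 female. All 30 called collagen genes had the same direction within the libraries numbered 355 to 387, where 28 were called, and within the low RT1-CE16 libraries, where 23 were called. The 7 that were not called among the latter were Col4a3, Col4a5, Col6a1, Col6a2, Col6a5, Col6a6 and Col16a1.

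On each diet taken alone, calls in the higher direction again outnumbered those in the lower one. On the control diet 14 of 40 collagen genes were called (12 higher, 2 lower; background 24.9% of all genes), on the deficient diet 23 (19 higher, 4 lower; background 27.4%) and on the excess diet 18 (15 higher, 3 lower; background 21.9%, with 11.6% higher and 10.4% lower). Of the 8 basement membrane genes, 6, 6 and 4 were higher on the control, the deficient and the excess diet, and 0 were lower, with median log2 changes of 0.72, 0.73 and 0.55. Of the 6 fibrillar genes, 1, 4 and 2 were higher and 1, 1 and 0 lower, with medians of 0.09, 0.47 and 0.32. On all 3 diets 10 of 40 genes were called in the same direction, against 13.5% of all genes. These were 9 that rose (background 7.05%), the same genes that did not overlap between sham and Glenn, and Col6a4, which fell (background 6.46%).

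**Figure D5:**
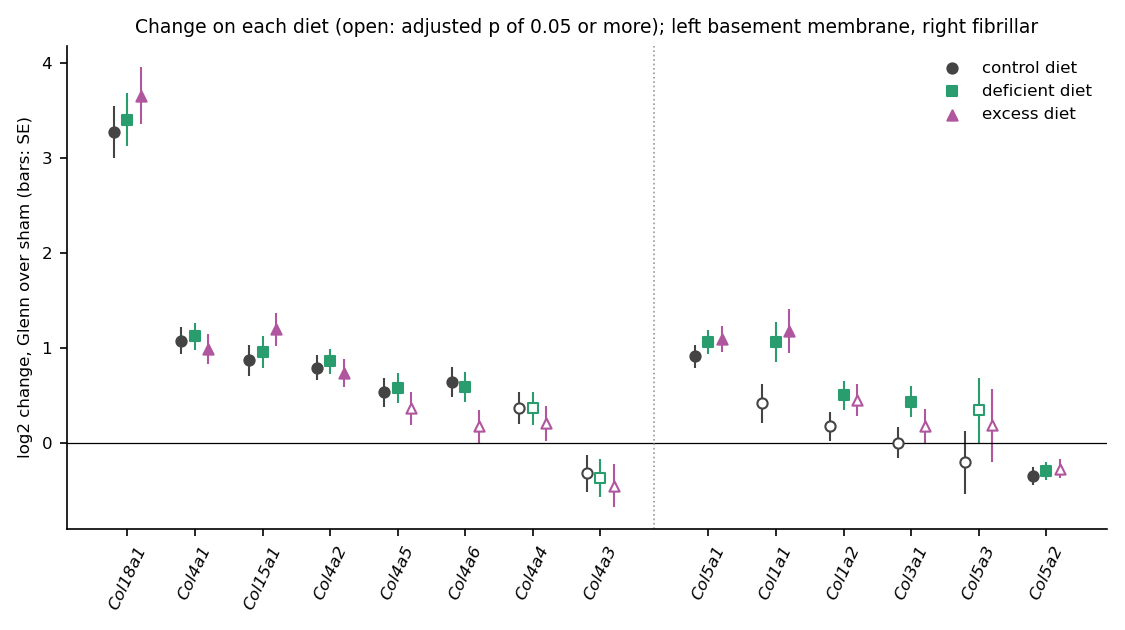
For each basement membrane gene (left) and fibrillar gene (right) the 3 symbols give the log2 change of Glenn over sham on the control, deficient and excess diet, with bars of 1 standard error and open symbols where the adjusted p was 0.05 or more. Col18a1, Col4a1, Col4a2, Col15a1 and Col5a1 are filled on all 3 diets, and Col1a1 is open on the control diet (0.42) and filled on the other diets (1.06 and 1.18).

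Among the 40 tested collagen genes, Col1a1 had the smallest p for a surgery change that differs between diets, without passing the threshold. In sham control libraries it was at 222, 215, 120, 185 and 116 CPM and in Glenn control libraries at 273, 173, 251, 241 and 211 CPM, which overlap. On the deficient diet it was at 203, 196, 194, 181 and 229 CPM in the sham libraries and 422, 385, 498, 324 and 455 CPM in the Glenn libraries, and on the excess diet at 120, 183, 78.3, 151 and 115 CPM in the sham libraries and 215, 330, 216, 348 and 365 CPM in the Glenn libraries. On these 2 diets the lowest Glenn library lay above the highest sham library. The log2 changes were 0.42 (SE 0.21, adjusted p 0.146 by edgeR), 1.06 (SE 0.21, 0.00038) and 1.18 (SE 0.23, 0.0004). The difference between these changes was not called in the test of surgery by diet (p 0.0350, adjusted p 0.85 by edgeR). In that test 0 of 40 collagen genes were called (background 0.00618%), with 3 collagen genes and 925 of all genes at an unadjusted p under 0.05.

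Several calls on a single diet turned on a library. Col3a1 was called on the deficient diet only (log2 0.43, SE 0.16, adjusted p 0.0473 by edgeR), and the call was lost without any of 19 of the 30 libraries, with an adjusted p of up to 0.167 (without Glenn deficient replicate 5). Col1a2 was called on the deficient diet (0.50, adjusted p 0.0162 by edgeR) but not without sham deficient replicate 1 (0.0709). On the excess diet Col1a2 (0.46, adjusted p 0.055) was called without Glenn control replicate 3 (0.0387) or 4 (0.0363), sham control replicate 4 (0.0402), sham deficient replicate 1 (0.0414) or 3 (0.0491) or sham excess replicate 2 (0.0274). Col5a2 was lower on the control diet (-0.34, adjusted p 0.00693 by edgeR) and on the deficient diet (-0.30, adjusted p 0.0201), where the call was lost without Glenn deficient replicate 2 (0.0629) or 4 (0.0512) or sham deficient replicate 1 (0.0754). On the excess diet Col5a2 (-0.27, adjusted p 0.0651) was called without Glenn control replicate 1 (0.0323), Glenn deficient replicate 3 (0.0495) or Glenn excess replicate 1 (0.0339).

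Of the basement membrane genes, Col4a5 and Col4a6 were called on the control and deficient diets and not on the excess diet. The log2 changes in that order were 0.64, 0.59 and 0.17 for Col4a6 and 0.53, 0.57 and 0.36 for Col4a5. On the excess diet Col4a5 was called without Glenn excess replicate 1 (0.53, adjusted p 0.0407). Col4a3 and Col4a4 were called on none of the diets taken alone, except that Col4a4 passed on the control diet without Glenn control replicate 2 (0.48, adjusted p 0.0320). Col8a2 was called on the deficient and excess diets, and on the control diet without Glenn control replicate 1 (0.69, adjusted p 0.0124) or sham deficient replicate 3 (0.55, adjusted p 0.0420).

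Vitamin A in the diet, compared within a surgery in 6 contrasts, gave 1 called collagen gene. These comparisons share libraries, so their values are given side by side. Deficient against control diet after sham called 0 collagen genes (background 0%), with Col19a1 and Col28a1, both at a few counts, at the smallest p. Excess against control after sham called 0 (background 0.241%, 0.0866% lower): Col1a2 was at 450, 391, 333, 553 and 362 CPM on the control and 230, 336, 210, 297 and 294 CPM on the excess diet (log2 -0.61, SE 0.15, adjusted p 0.0827 by edgeR), and Col3a1 had a log2 difference of -0.48 (adjusted p 0.223). Col1a2 passed without Glenn control replicate 4 (adjusted p 0.0476) and with DESeq2 (0.0104), and fibroblast marker sums were 533 to 850 CPM in sham control and 405 to 487 CPM in sham excess libraries; mesothelial marker sums were 370 to 617 CPM and 256 to 313 CPM, with Upk1b called (log2 -0.92, adjusted p 0.0400). The part of these cells in this was not tested. Excess against deficient after sham called 0 (background 0.0124%), with Col1a1 at -0.63 (adjusted p 0.725) and Col1a2 at -0.38 (adjusted p 0.905).

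After Glenn, deficient against control called 0 collagen genes (background 0.00618%), with Col1a1 at 0.86 (SE 0.22, adjusted p 0.184 by edgeR) and Col6a3 at 0.74 (adjusted p 0.313). In the same contrast 0 of 12 fibroblast markers were called, with a median log2 difference of 0.69 and Mfap5 at 1.55 (adjusted p 0.103), and their sums were 644 to 1102 CPM on the control and 838 to 1021 CPM on the deficient diet; their part was not tested. Col1a1 was called by DESeq2 (adjusted p 0.0152), and without Glenn control replicate 1 edgeR called 1 collagen gene. Excess against control after Glenn called 1 of 40 (background 1.47%), Col4a6, at 11.3, 9.27, 14.4, 15.6 and 14.5 CPM on the control and 7.54, 6.42, 12.6, 12.7 and 8.21 CPM on the excess diet (log2 -0.72, SE 0.18, adjusted p 0.0344 by edgeR). These ranges overlap, and the call was lost without Glenn control replicate 3 (0.0800), 4 (0.0903) or 5 (0.101) or Glenn excess replicate 1 (0.215), 2 (0.149) or 5 (0.0586), and with a term for RT1-CE16 (0.0989) or for RT1-CE16 and sex (0.122), with no library-range term (0.320), with the replicate block (0.229), within low (0.150) or high RT1-CE16 (0.673), without number 1 of each Glenn group (0.153) and with only the groups compared (0.140). Without Glenn control replicate 1, 2 collagen genes were called. In this contrast 2 of 5 mesothelial markers were lower, Lrrn4 (-1.14, adjusted p 0.0128) and Upk1b (-1.01, adjusted p 0.0196), with sums of 327 to 725 CPM on the control and 177 to 543 CPM on the excess diet, and 1 of 11 mural markers, Rgs5, was higher (1.05, adjusted p 0.00800); their part was not tested. Excess against deficient after Glenn called 0 (background 0%), with Col4a6 at -0.65 (adjusted p 0.335) and Col3a1 at -0.61 (adjusted p 0.409), and DESeq2 called Col4a6 (0.0498). Collagen genes at an unadjusted p under 0.05 numbered 2, 9 and 5 in the 3 sham comparisons, in the order given, and 13, 3 and 7 in the Glenn ones, against 844, 1788, 854, 1598, 2254 and 837 of all genes.

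More of the genes that make, bind or sense collagen rose than fell after Glenn surgery. Of 58 listed genes 53 were tested, and 25 rose and 14 fell in the average over diets, with a median log2 change of 0.17. Of all genes tested 48.2% were called, 23.4% higher and 24.7% lower, the background for the counts of calls in this paragraph. Of 4 other basement membrane proteins 3 rose and 1 fell. Hspg2 (perlecan) rose by 2.04 (SE 0.15, adjusted p 5.27e-12 by edgeR), Nid2 by 1.61 (SE 0.07, adjusted p 8e-18 by edgeR) and Nid1 by 1.13. For these 3 all Glenn libraries lay above all sham libraries, which was so for 3.1% of all genes tested. Agrn fell by 0.24. Of the 9 tested proteins that bind fibrils 7 rose, led by Thbs2 (1.69) and Sparc (0.86), which binds collagen and aids its deposition. Of 6 cross-linking enzymes 4 rose, among them Lox (0.94) and Loxl1 (0.59), which are lysyl oxidases, and Loxl4 fell by 0.97. Of the 6 tested genes of propeptide removal 3 rose, among them Adamts14 (1.38) and Adamts2 (0.48), which cut procollagen ends.

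Among the genes that modify and fold new chains inside the cell, 9 of 20 fell and 4 rose (background 24.7% lower and 23.4% higher). Plod2, a lysyl hydroxylase, rose by 0.61 (SE 0.06, adjusted p 1.82e-09 by edgeR) and P3h2, a prolyl 3-hydroxylase known to act on type IV collagen, by 0.55, while the sugar transferases Colgalt1 and Colgalt2 fell by 0.23 and 0.40. Plod2 changed by 0.21, 0.59 and 1.02 on the control, the deficient and the excess diet and Colgalt1 by -0.45, -0.11 and -0.11, and neither passed the test of surgery by diet (Plod2 p 7.88e-05, adjusted p 0.212; Colgalt1 p 0.00193, adjusted p 0.504; by edgeR). Collagen receptors were also split, with 4 that rose and 3 that fell of 8, against the same background. Mrc2, an uptake receptor for collagen, rose by 0.98 and Itga10 by 2.89 at no more than 1.73 CPM, while Itga2, an integrin chain for collagen, fell by 0.72 and Gp6, the platelet collagen receptor, by 1.30. Among low RT1-CE16 libraries Colgalt1, Adamts2, Agrn and Gp6 kept their direction and did not pass the test (adjusted p 0.0823, 0.0822, 0.0802 and 0.135).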

How the data were processed

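The authors deposited estimated counts from Salmon, 1 row to a gene; the submitters' processing notes also name STAR, Trim Galore, Picard and FastQC and the rat builds mRatBN7.2 and rn7, with roles and versions not given in the sources used here. Libraries were made with a low-input SMART-Seq kit, per the labels' protocols. Estimated counts (13.6% of values not whole) were rounded and tested with edgeR 4.0.16 in R 4.3.3 (filterByExpr with a minimum count of 10 and total of 15, TMM factors of 0.938 to 1.06, robust quasi-likelihood fit, Benjamini-Hochberg adjustment over 16171 genes, 23 residual degrees of freedom). The model had a mean for each of the 6 groups and a term for the library number range. The standard error is the log2 change over the square root of F. Alternatives used DESeq2 1.42.0 and limma 3.58.1, and the method was tested on simulated data.

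The collagen genes and all gene and marker lists were chosen with earlier results of these data known. Named were the tested genes of types I, III, IV, V, XV and XVIII, the 6 other collagen genes with the smallest adjusted p, members called in a diet contrast (or the 2 with the smallest p), up to 2 called genes in each direction per list of collagen-making genes, and 6 cell markers; further genes are named where a count of them is given and were singled out after their values were seen. The cell type lists cover endothelial, mural, fibroblast, mesothelial, type 1 and type 2 alveolar, leukocyte, cartilage and Schwann cells. No 2 libraries of a group agreed within sampling noise. Promoter windows come from RefSeq (GRCr8), for 35 of 44 collagen genes, and only their letters were used. Gene lengths were not used here, so levels of different genes are not compared. Counting that splits reads between similar genes, and unstranded overlap, can shift single values.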

Additional observations from a re-analysis of the deposited data

Results flagged for a closer look

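Each library was compared with the other 4 of its group for the 20 named collagen genes, 2 class sums and 3 chain ratios, 150 sets in all, of which chance would give about 1 in 20, or 7.5; 12 held a library far from the rest, measured as its gap to the nearest library over the range of the group. In Col18a1, Glenn control replicate 1 was high (464 CPM against 231 to 281, gap 0.784) and sham deficient replicate 3 was low (26.2 CPM against 40.6 to 45.0, gap 0.769). In Col8a1, Glenn control replicate 1 was high as well (60.0 CPM against 42.4 to 45.3, gap 0.837), as were Glenn excess replicate 5 (109 CPM against 44.1 to 61.4, gap 0.732) and sham excess replicate 2 (14.7 CPM against 11.3 to 11.9, gap 0.801). In Col19a1, sham deficient replicate 2 (0.350 CPM against 0.0314 to 0.0841, gap 0.835) and sham excess replicate 3 (0.627 CPM against 0 in the other 4, gap 1.0) were high. In Col27a1, Glenn deficient replicate 4 was low (2.78 CPM against 4.81 to 5.55, gap 0.732) and sham deficient replicate 4 was high (2.12 CPM against 1.38 to 1.57, gap 0.738). Glenn deficient replicate 5 was high in Col3a1 (3468 CPM against 2072 to 2336, gap 0.811), Glenn deficient replicate 4 was high in Col4a4 (174 CPM against 115 to 131, gap 0.723), and sham excess replicate 1 was low in Col4a5 (31.7 CPM against 54.4 to 61.4, gap 0.764).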

How the results depend on the processing

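Averaged over diets, the count of called collagen genes was 23 to 31 over 11 alternatives and 29 to 31 with 1 library left out, and all 30 kept their direction in each; other scalings moved the median of all genes by at most 0.0122. Alternatives chosen after the data were seen were fits within the low or the high RT1-CE16 libraries, within the libraries numbered 598 to 606, and without 3 libraries (number 1 of each Glenn group). On the control diet the low RT1-CE16 libraries gave 9 calls, and leaving out 1 library gave 14 to 15. On the deficient diet the count was 13 within libraries 355 to 387, 14 and 13 within low and high RT1-CE16 and 13 within libraries 598 to 606, and 19 to 23 with 1 library left out. On the excess diet it was 11 within libraries 355 to 387, with low RT1-CE16 and with only the groups compared, and 14 to 21 with 1 left out. On the deficient and excess diets, number range and RT1-CE16 level split the libraries in the same way, so these fits are not separate checks. In the diet contrasts, DESeq2 called 1 in excess against control after sham, 1 in deficient against control after Glenn and 1 in excess against deficient after Glenn; for deficient against control after Glenn the count was 2 without the 3 libraries and 1 with only the groups compared. For excess against control after Glenn the count was 0 with no library-range term, with RT1-CE16 as a term alone or with sex, with the replicate block, with low or high RT1-CE16, without the 3 libraries and with only the groups compared. With 1 library left out these counts ranged from 0 to 1 (excess against control after sham), 0 to 1 (deficient against control after Glenn) and 0 to 2 (excess against control after Glenn). Collagen-making genes called were 22 among low RT1-CE16 libraries. Sign changes among the named genes were limited to 4 genes, in contrasts where they had not passed the test. Col3a1 on the control diet was -0.00902 with limma voom, -0.0804 with low RT1-CE16, -0.00437 without the 3 libraries and -0.114 to 0.143 with 1 library left out; Col1a2 there was -0.0464 with low RT1-CE16. Col5a3 was -0.11 in the average with low RT1-CE16 (-0.0442 to 0.193 with 1 library left out), 0.0337 on the control diet with high RT1-CE16, -0.0224 on the deficient diet with high RT1-CE16 and -0.0218 there within libraries 598 to 606, and on the excess diet -0.16 with no library-range term and -0.28 within libraries 355 to 387, with low RT1-CE16 and with only the groups compared. Pecam1 was 0.0144 within libraries 355 to 387 and 0.0943 with low RT1-CE16. The cause was not tested. The replicate block called 31 collagen genes in the average, Col3a1 added (adjusted p 0.0267). Same-numbered sham and Glenn libraries correlated at -0.373 to 0.329 (median 0.109), with 8 of 15 pairs over 0.1 and 5 of 15 best with their own number. These values show no clear pairing by number but cannot exclude one, and the main fit used none. Contrasts with sham excess could not be formed with high RT1-CE16, nor those with control groups within libraries 598 to 606. Low counts limit Col9a3, Col19a1, Col22a1 and Col28a1.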
